A study of Mus musculus with 15 samples.

Results

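Gm2016 is a gene of mouse chromosome 12 whose transcript is abundant at the 2-cell stage, and it is described here over 6 RNA libraries of mouse embryos. It is 1 gene of the 53023 in the deposited table. It was chosen because its level was much higher in one pair of libraries, called B below, than in the pairs A and C, so those values are given as a description and without a test. Each library was a pool of 5 embryos of the ICR strain, fertilised in vitro and lysed at the 2-cell stage 32 hours after insemination. The study asked what happens to transcription when filamentous actin in the nucleus is disturbed, by injecting mRNA for a nuclear form of the actin mutant R62D at 2 hours after insemination.

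The labels of these 6 libraries contradict each other, and neither reading was preferred. Pair A carries the titles Wt-1 and Wt-2, but its annotation says non-injected. Pair B is titled R62D-1 and R62D-2 and annotated with actinWT-HA-NLS, wild-type actin with a nuclear localisation signal and the HA tag. Pair C has the titles of the non-injected control and the annotation actinR62D-HA-NLS. B against A is thus wild-type actin against non-injected embryos by the annotation, or R62D against wild-type actin by the titles, and C against A is R62D against non-injected embryos or non-injected embryos against wild-type actin. Nothing in the labels says that the pools of a pair came from separate matings. Not analysed here were 9 further samples of the series, 3 each with Exportin 6 plus R62D, with actin G15S and without injection.

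The 2-cell stage is when the mouse embryo first transcribes its own genome at a high rate. The genes active then include multicopy families that are silent in most other tissues, and the same genes are switched on in the rare 2-cell-like cells of embryonic stem cell cultures. A cluster of genes on chromosome 12, known as Eif1a-like genes, is among them. Its relatives elsewhere in the genome, Eif1a and the X-linked Eif1ax, encode the initiation factor eIF1A, which binds the small ribosomal subunit and takes part in scanning for the start codon.

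The gene lies on the plus strand at 87874072 to 87877859 (mm10). Exon 1, 87874072 to 87874262, is untranslated, and exon 2 covers 87876285 to 87877859. The transcript of 1766 bases has 491 bases before the coding part, 435 coding bases with the stop codon and 840 bases after it. The coding part, in exon 2, spans 87876585 to 87877019. Its first 300 bases, chr12:87876585-87876884, are shown because such letters decide how far reads of this gene can be told from those of its copies. The copy Gm5662 differed from it at 4 coding positions, and capitals mark the 3 that fall in this stretch.
Gm2016: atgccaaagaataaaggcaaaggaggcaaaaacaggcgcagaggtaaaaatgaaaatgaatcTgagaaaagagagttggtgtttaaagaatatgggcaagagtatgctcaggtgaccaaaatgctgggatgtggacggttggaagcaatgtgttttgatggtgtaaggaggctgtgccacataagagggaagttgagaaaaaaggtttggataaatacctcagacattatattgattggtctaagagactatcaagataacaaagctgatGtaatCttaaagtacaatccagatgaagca

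Searched with this coding part, the GENCODE M21 transcripts held 22 other genes of the deposited table that aligned over at least 200 bases. Of these, 19 lay on chromosome 12, among them Gm5662 at 99.1% identity, Gm2022 at 98.9% and Gm8332 at 98.6%, and the least similar of the 19 was the pseudogene Gm10264 at 95.3%. Eif1a matched at 94.7%, Eif1ax at 85.1% and the processed pseudogene Gm13368 at 80.6%. Within the 16 relatives aligned without gaps over the whole coding part, Eif1a left out, 338 of 435 positions were the same in all. These 16 are 15 chromosome 12 copies and Eif1ax, and in the 15 copies alone 387 positions were the same. The stretch of 90 coding bases with the most differences from Gm2016 over these 16, bases 343 to 432 (chr12:87876927-87877016 in Gm2016), is set out for 8 of the relatives to show how few letters separate the copies. Capitals mark bases that differ from Gm2016.
Gm2016: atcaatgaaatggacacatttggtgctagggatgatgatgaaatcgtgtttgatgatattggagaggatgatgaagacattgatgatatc
Gm5662: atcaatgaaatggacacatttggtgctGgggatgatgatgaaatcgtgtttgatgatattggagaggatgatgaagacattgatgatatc
Gm2022: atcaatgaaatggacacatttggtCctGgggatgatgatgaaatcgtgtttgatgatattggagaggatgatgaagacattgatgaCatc
Gm2075: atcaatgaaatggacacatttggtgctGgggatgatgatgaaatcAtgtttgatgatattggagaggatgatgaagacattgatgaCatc
Gm8300: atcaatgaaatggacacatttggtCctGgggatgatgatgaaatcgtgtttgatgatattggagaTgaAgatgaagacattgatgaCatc
Gm4027: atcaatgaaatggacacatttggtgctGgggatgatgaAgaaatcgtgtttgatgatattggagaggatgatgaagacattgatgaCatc
Gm5788: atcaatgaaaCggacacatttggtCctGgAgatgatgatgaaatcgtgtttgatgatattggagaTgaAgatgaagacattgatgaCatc
Gm21936: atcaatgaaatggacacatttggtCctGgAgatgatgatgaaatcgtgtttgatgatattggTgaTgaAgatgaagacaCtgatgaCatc
Eif1ax: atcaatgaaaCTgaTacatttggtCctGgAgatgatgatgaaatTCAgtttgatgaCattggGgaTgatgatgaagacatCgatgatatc

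Gm5662 had 1 differing base in this stretch, Gm2022, Gm2075 and Gm4027 had 3, and Eif1ax had 13. The similarity of Gm5662 went beyond the coding part, at 99.3% over all 1766 bases of the transcript, with 12 differing bases. Of the 1717 windows of 50 bases in the Gm2016 transcript, the length of the longer read, 321 occurred in no other gene's transcripts. A further 969 were shared with Gm5662 alone, and 427 with at least 1 gene other than Gm5662. In the coding part 50 of 386 windows were found in Gm2016 alone. The level of Gm2016 is therefore uncertain as that of a single gene, above all against Gm5662, and the copies below share windows with it.

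Gm2016 measured 472.3 FPKM in A1 and 292.9 FPKM in A2, 936.7 FPKM in B1 and 1104.1 FPKM in B2, and 737.8 FPKM in C1 and 287.03 FPKM in C2. FPKM are fragments scaled to the exon length of the gene and to the assigned fragments of the library. In what follows the value of replicate 1 of a pair is given before that of replicate 2. B2 and B1 were the highest libraries, C1 came next, and A2 and C2 were the lowest. The values rested on 834.1, 578.2, 2092.4, 2329.4, 2026.6 and 459.9 reads in A1, A2, B1, B2, C1 and C2. None of the 6 read numbers was whole, so part of the reads had been counted as fractions. By mean level Gm2016 was 113th of the 53023 genes, between 63rd (B2) and 282nd (A2) in single libraries.

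**Figure D1:**
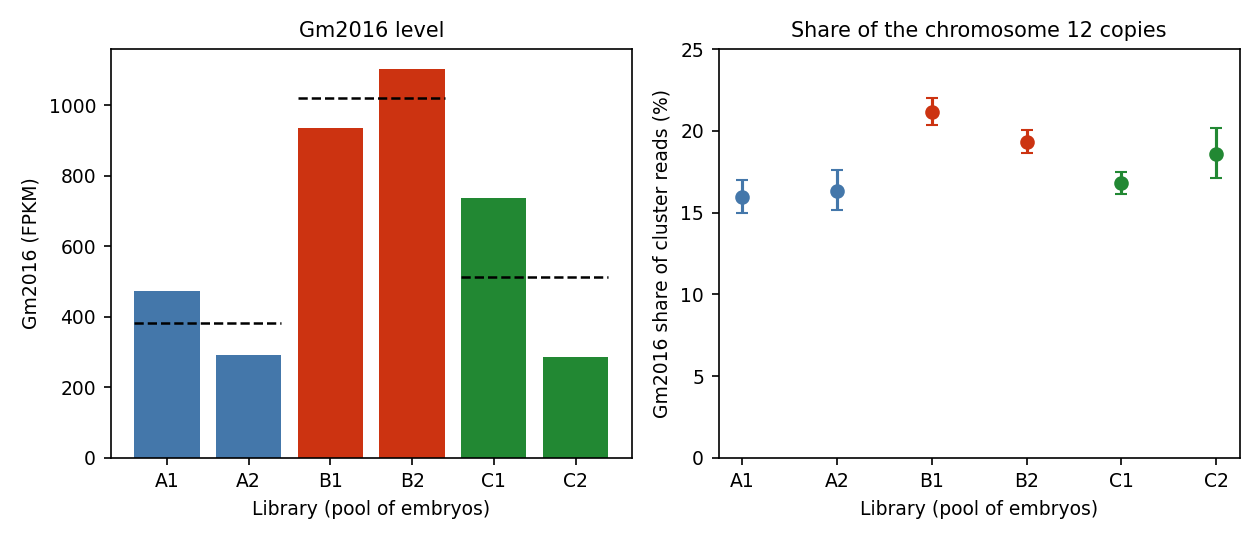
Left, the FPKM of Gm2016 in each library as bars, blue for pair A, red for B and green for C, with dashed lines at the pair means. Right, its share of the reads of all 20 chromosome 12 copies, in percent, with 95% Wilson intervals for counting error. C1, at 737.8 FPKM, stands closer to B1 at 936.7 FPKM than to C2 at 287.03 FPKM, and the share lies between 15.97% and 21.2% in all libraries.

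The pair means were 382.6 ± 126.8 FPKM for pair A, 1020.4 ± 118.4 FPKM for pair B and 512.4 ± 318.7 FPKM for pair C (SD, n = 2). The values of A and C overlapped, and both B libraries lay above all 4 others. Of the 13443 genes tested, those averaging 1 FPKM or more, 7.41% had both B libraries above the other 4. On the log2(FPKM + 1) scale the fitted difference of B from the mean of A and C was 1.30 ± 0.41 (SE), with the pairs B and A differing by 1.45 and C and B by -1.14. Gm2016 was 321st of the 13443 genes tested, 2.38% having a larger coefficient. The genes next to Gm2016 in that order were Fthl17d and Tnfaip8l2 just above and Gm27509 and F2r just below. By linear means the B libraries were 2.28 times the mean of the other 4.

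In the order of the libraries the steps on the log2 scale were 0.24 from B2 to B1, 0.34 from B1 to C1, 0.64 from C1 to A1, 0.69 from A1 to A2 and 0.03 from A2 to C2. The spread of libraries within pairs, as the residual SD, was 0.63. The steps between B2 and B1, B1 and C1, and A2 and C2 were below this SD, and those on either side of A1 were just above it. The SD is that of a single library, and a difference between libraries varies more. Steps within a pair also enter the SD, so no neighbouring libraries were taken to differ. The largest difference within a pair was that of C, where C1 was 2.57 times C2, against 1.61 times for A1 over A2 and 1.18 times for B2 over B1. Gm2016 took from 0.0507% of the assigned reads in C2 (95% Wilson interval for counting error 0.0463% to 0.0556%) to 0.195% in B2 (0.187% to 0.203%). In pooled embryos, fewer embryos with the transcript and less of it per embryo cannot be told apart.

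Pair C against pair A is the comparison that did not enter the choice of the gene. Between them the log2 fold change of Gm2016 was 0.31 ± 0.47 (SE), and the adjusted p was 1 (limma). A difference of this size is within the spread of the libraries, and its direction rests on single ones. Without A2 it was -0.04, without C1 -0.37, and without C2 0.99, the adjusted p then being 0.993 (limma). In each of these fits a pair is left with 1 library, which is assumed to vary like the others. Across all 13443 genes 0 were called in C against A (limma, 0.0% at an adjusted p below 0.05), with 225 higher and 180 lower at an unadjusted p below 0.05 and 0 called by limma-voom. In B against the mean of A and C 0 genes were called as well (limma, 0.0%), with 356 higher and 269 lower at an unadjusted p below 0.05 and 0 by limma-voom.

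The libraries A2 and C2, which held the lowest Gm2016 levels, also stood apart over all genes. Assigned reads numbered 907210 to 1555431 per library, and 1 read of Gm2016 was worth 0.364 to 0.624 FPKM. On the first principal component A2 and C2 scored 49.3 and 49.7, against -32.7 to -11.1 for the other 4. They detected 12485 and 12279 genes at 1 FPKM or more, against 13239 to 13845. Of all genes tested, 15% were lower in both A2 and C2 than in the other 4 libraries. Without A2 and C2 the difference of B from the remaining A1 and C1 in Gm2016 was 0.78 ± 0.27 (SE) on the log2 scale, and 1.69 times by linear means, with an SE that rests for Gm2016 on the spread within pair B and the variance trend. Library B2, the highest, had 0 reads on Y-linked genes where the others had 107.5 to 311 reads. Whether these properties of the libraries have a part in the Gm2016 levels was not tested.

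The 19 chromosome 12 copies were next examined, chosen by sequence and not by level. All 19 averaged 1 FPKM or more, and in all 19 the coefficient of B against the mean of A and C was above 0, with a median of 0.95 and a range of 0.38 to 1.33. Over all genes tested the median was 0.03, and 53.2% were above 0. None of the copies passed over all genes (limma, smallest adjusted p = 0.988), and 4 of 19 had an unadjusted p below 0.05, against 2.65% of all genes in that direction, and 0 were lower at that level. These copies share from 2.63% (Gm10264) to 72.1% (Gm5662) of their 50-base windows with the gene that was picked for this contrast, so their values may not be independent of the choice. The share of their windows found in no other gene ran from 0.0% (Gm8332) to 86.4% (Gm21319). The 19 copies, over the same libraries, are therefore not separate measurements. Gm2016 had a larger coefficient than 18 of the 19, Gm5662 being the exception at 1.33 ± 0.47 (SE).

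Gm5662 measured 700.8 and 309.7 FPKM in the A libraries, 1081.2 and 1403.9 FPKM in the B libraries and 823.8 and 320.2 FPKM in the C libraries. Its order over the libraries was that of Gm2016 from B2 down to A1, with A2 and C2 exchanged. The ratio of Gm2016 to Gm5662 was 0.674 in A1 and 0.946 in A2, 0.866 in B1 and 0.786 in B2, and 0.896 in C1 and 0.897 in C2, so the pairs overlapped in it. With the FPKM of both genes summed and fitted as 1 gene, B against the mean of A and C gave 1.31 and C against A 0.21 on the log2 scale, close to the 1.30 and 0.31 of Gm2016 alone.

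The cluster as a whole was then measured. The 20 copies on chromosome 12, Gm2016 included, took 0.522% and 0.316% of assigned reads in the A libraries, 0.781% and 1.01% in the B libraries and 0.774% and 0.273% in the C libraries. B1 and C1 were thus nearly level. Gm2016 held 15.97% and 16.35% of those reads in the A libraries, 21.2% and 19.4% in the B libraries and 16.8% and 18.6% in the C libraries. The share was highest in B1 and B2, with C2 close to B2. In C1 the median level of the 19 other copies was 0.61 above their mean over the libraries on the log2 scale, against 0.44 in B1 and 0.78 in B2. A2 and C2 were at -0.64 and -1.03, and A1 was at -0.19.

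Of the 19 copies, 4 had both B libraries above the other 4 (7.41% of all genes did), namely Gm5662, Gm2022, Gm5788 and the pseudogene CT954323.2. None had both B libraries below the other 4 (5.91% of all genes). In 14 of the 19 C1 exceeded B1 (55.5% of all genes), and in 5 it exceeded B2 (7371 of the 13443 genes tested). In 14 of 19 both A2 and C2 lay below the other 4 libraries, where 15% of all genes did. Without A2 and C2 the coefficient was above 0 in 18 of 19, Gm5039 excepted, with a median of 0.44, against 47.9% of all genes. In C against A 16 of 19 coefficients were above 0 (56.5% of all genes), with a median of 0.15 (0.06 over all genes). At an unadjusted p below 0.05 in that comparison 0 of the 19 were higher and 0 lower, against 1.67% and 1.34% of all genes (limma).

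**Figure D2:**
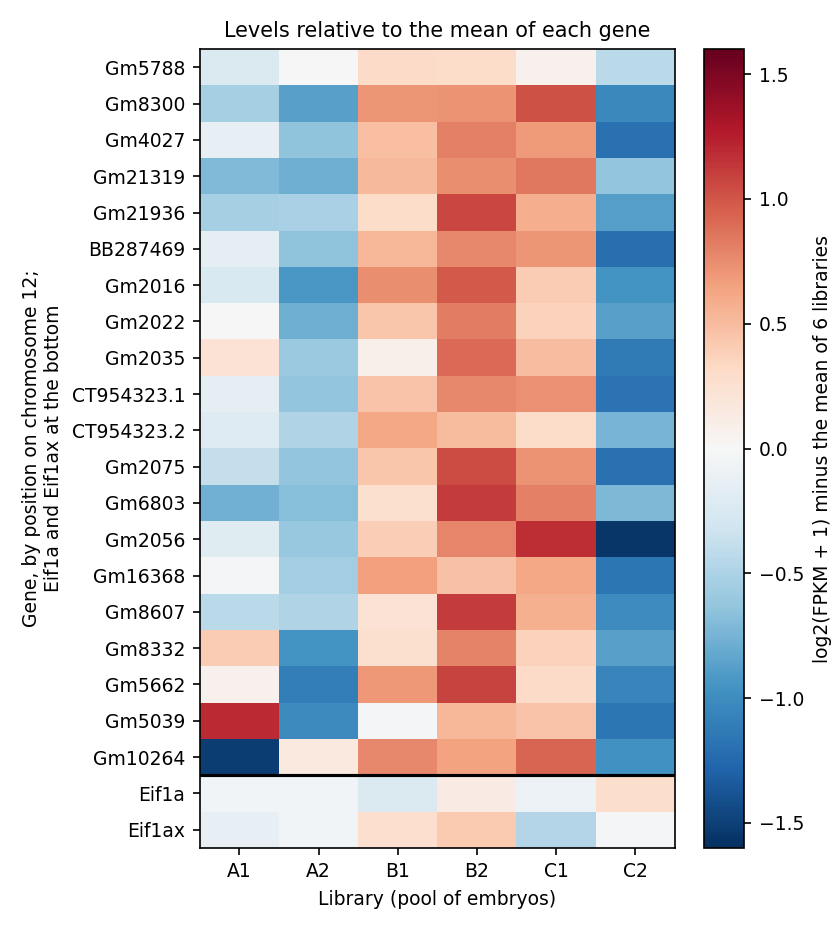
Each row is a gene and each column a library. Colour gives log2(FPKM + 1) minus the mean of that gene over the 6 libraries, red above and blue below. The 20 chromosome 12 copies stand in order of position, with Eif1a and Eif1ax under the black line. The columns B1, B2 and C1 are mostly red and A2 and C2 mostly blue, with Gm5039 and Gm10264 departing in A1.

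Of the copies, 4 can be measured largely apart from the rest, since at least 70% of their 50-base windows occur in no other gene. These are Gm21319 (86.4%), Gm5039 (82.7%), Gm10264 (76.6%) and Gm8300 (73.4%), a threshold chosen after the values were seen. Gm8300 measured 94.5 and 74.4 FPKM in the A libraries, 223.5 and 225.7 FPKM in the B libraries and 277.8 and 66.5 FPKM in the C libraries. Gm21319 measured 24.2 and 23.1, 58.3 and 68.3, and 73.4 and 25.75 FPKM in the same order. In both genes C1 was the highest library, above both of pair B, so the place of C1 differed from that in Gm2016. Gm5039 departed most, with 280.5 FPKM in A1, its highest value, against 59.8 in A2, 120.1 and 176.7 in the B libraries and 167.6 and 54.4 in the C libraries. Gm10264, an unprocessed pseudogene, was low throughout at 3.64 and 13.8, 21.6 and 19.8, and 24.3 and 5.78 FPKM. The coefficient of B against the mean of A and C was above 0 in all 4, with a median of 1.00. In all 4 genes C1 exceeded B1 (55.5% of all genes), and in none did both B libraries exceed the other 4 (7.41% of all genes).

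A list of Eif1a-like genes drawn up by name had 19 members in the table, Eif1a and Eif1ax included. Its median coefficient was 0.95, with 18 above 0 (53.2% of all genes) and 4 higher at an unadjusted p below 0.05 (limma, 2.65% of all genes). Members Gm2042 and Gm20767 did not align over at least 200 bases to the coding part of Gm2016, and Gm20767 is among these 4. The other members are all relatives by coding sequence too, so the list is not a separate set of genes. Gm20767, on chromosome 13, measured 130.1 and 85.6 FPKM in the A libraries, 193.9 and 145.5 FPKM in the B libraries and 116.9 and 80.5 FPKM in the C libraries.

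Eif1a, an autosomal eIF1A gene outside the cluster, measured 92.75 and 92.79 FPKM in the A libraries, 81.6 and 105.0 FPKM in the B libraries and 89.4 and 116.1 FPKM in the C libraries. Its pairs overlapped throughout, and its coefficient for B against the mean of A and C was -0.07 ± 0.25 (SE; limma, adjusted p = 0.991). Eif1ax measured 28.1 and 29.9, 37.6 and 41.6, and 22.1 and 30.1 FPKM in the same order, with both B libraries highest and a coefficient of 0.52 ± 0.27 (SE; limma, adjusted p = 0.988). Across the libraries Gm2016 ranged 3.85-fold, and per kilobase it stood above both genes in every library.

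Other initiation factors were taken from a list of 46 genes, all tested. Their median coefficient was -0.04 (0.03 over all genes), with 22 of 46 above 0 (53.2% of all genes). In B against the mean of A and C 0 had an unadjusted p below 0.05 (limma, 2.65% of genes higher, 2.0% lower). Eif1, whose product works beside eIF1A in start codon choice, had -0.15 ± 0.23 (SE), and Eif5b, which joins the ribosomal subunits, had 0.25 ± 0.31 (SE). Eif2s1, the alpha subunit of eIF2, and Eif5, its GTPase activator, had -0.02 ± 0.23 and 0.16 ± 0.28 (SE). Eif1b and Eif1ad had 0.11 ± 0.31 and -0.08 ± 0.39 (SE).

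The table lists 97 other genes within 500 kb of Gm2016, and 62 of them were tested. Apart from the copies these were 43 genes, mostly processed pseudogenes, with a median coefficient of 0.23 (0.03 over all genes) and 33 above 0 (53.2% of all genes). Of the 43, 2 had an unadjusted p below 0.05 as higher in B against the mean of A and C, where 2.65% of all genes did. Among the abundant genes between the copies, Oog1, an oogenesin of the oocyte, measured 400.0 and 155.1 FPKM in the A libraries, 293.7 and 227.5 FPKM in the B libraries and 350.8 and 196.2 FPKM in the C libraries. Its coefficient was 0.02 ± 0.43 (SE), and A1 was its highest library. Gm2001 and Gm16381, with almost the same values in each library, measured 1437.3 and 1413.3 FPKM in A1, and 1740.1 and 1709.4 FPKM in B1, but 914.8 and 908.7 FPKM in B2. The pseudogene Gm1995, close to Gm2016, measured 19.97 to 31.0 FPKM with a coefficient of -0.04 ± 0.29 (SE).

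**Figure D3:**
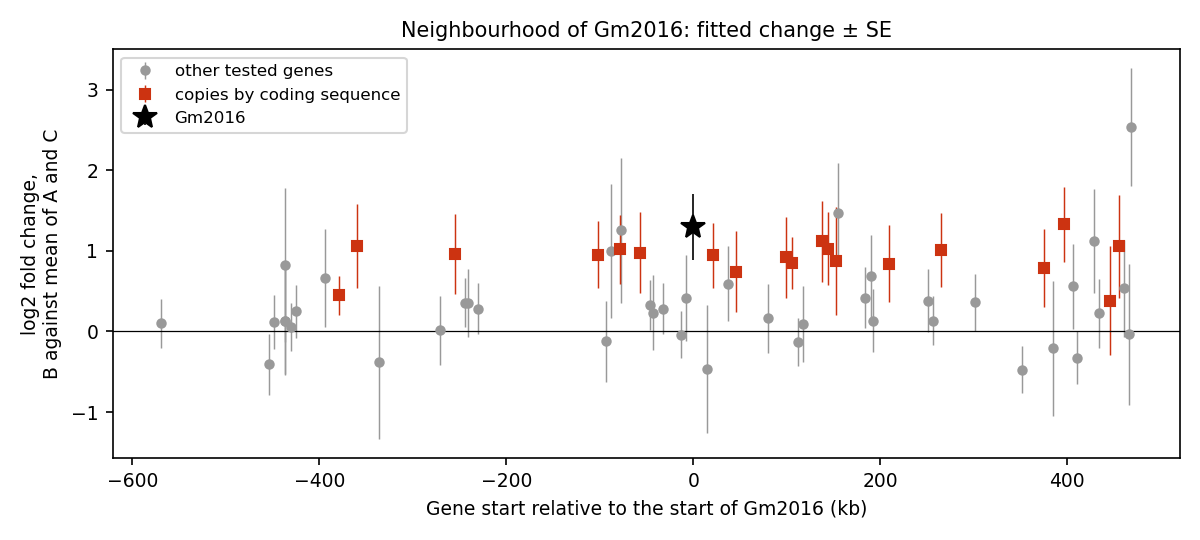
Each point is a tested gene within 500 kb, placed by the distance of its start from that of Gm2016 in kilobases. The vertical axis is the log2 fold change of B against the mean of A and C, with the SE as bars. Copies by coding sequence (red squares, median 0.95) all lie above 0, while the other genes (grey, median 0.23) scatter around a lower level at the same positions.

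The wider 2-cell programme was represented by 57 genes of the table, Gm2016 left out and 5 chromosome 12 copies included. Of these, 56 averaged 1 FPKM or more, which is the check of the labelled stage, and were tested. In B against the mean of A and C 50 of 56 coefficients were above 0 (53.2% of all genes), with a median of 0.55 (0.03 over all genes). Of the 56, 6 had an unadjusted p below 0.05 as higher in B, against 2.65% of all genes (limma, none passed over all genes). Both B libraries exceeded the other 4 in 13 of 56, against 7.41% of all genes, and A2 and C2 were both lowest in 30 of 56, against 15%. The most abundant members differed among themselves. Obox6, a homeobox gene and the highest of the list, measured 1005.8 and 1376.7 FPKM in the A libraries, 1071.8 and 1345.0 FPKM in the B libraries and 1134.0 and 1343.8 FPKM in the C libraries, with overlapping pairs. Obox5 had a coefficient of -0.66 ± 0.33 (SE), with its highest value in C1. Usp17lb, a deubiquitinase gene, and Rfpl4b had 0.54 ± 0.29 and 0.38 ± 0.27 (SE), and Tcstv3 had 0.49 ± 0.27 (SE).

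Likeness to Gm2016 was measured as Pearson's r of log2(FPKM + 1) over the 6 libraries, among the 7085 genes averaging 5 FPKM or more. Of these 183, or 2.58%, reached 0.9, with a median of 0.12 over all. The highest were the processed pseudogene Gm18805 (0.990), Tgfb2, a ligand of the TGF-beta family (0.989), Cd36, a receptor for fatty acids and lipoproteins (0.987), Zfp353-ps (0.985) and the zinc finger gene Zfp106 (0.984). They were followed by the lincRNA Gm8953 (0.984), Hagh, which encodes glyoxalase II (0.984), the copies Gm2022 (0.984) and Gm5662 (0.982), and Gm8994 (0.978), which RefSeq names Eif4a3l1. The r of Gm18805 rested on few reads, with 2, 0, 8, 11, 6 and 0 reads in A1, A2, B1, B2, C1 and C2.

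Tgfb2 measured 50.4 and 25.8 FPKM in the A libraries, 96.8 and 102.9 FPKM in the B libraries and 78.6 and 22.3 FPKM in the C libraries. Zfp353-ps measured 29.7 and 10.3, 57.5 and 105.3, and 54.2 and 8.68 FPKM, and Hagh 11.5 and 8.91, 23.6 and 32.0, and 17.5 and 8.09 FPKM in the same order. In these genes, as in Gm2016, C1 stood between B1 and A1, and A2 and C2 were lowest. The lowest r belonged to the pseudogene Gm14269 (-0.990), the miRNA gene Gm26384 (-0.978), Eef1e1 of the aminoacyl-tRNA synthetase complex (-0.975), Sycp1 of the synaptonemal complex (-0.975) and the pseudogene Gm11759 (-0.974). Gm26384 had only 0.70 to 1.95 reads per library and Gm11759 2.49 to 4.93 reads, so their r rested on few reads. Sycp1 measured 23.9 and 30.7, 15.7 and 13.7, and 20.1 and 27.4 FPKM, with A2 the highest. The 6 points share their libraries, and with A2 and C2 left out 0 of the 10 genes named as most like Gm2016 stayed among the first 10.

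Among the 21 relatives of any chromosome at this level the median r was 0.92, and 12 reached 0.9. The chromosome 12 copies share from 2.63% (Gm10264) to 72.1% (Gm5662) of their 50-base windows with Gm2016, so their r may not be independent of it. How far shared reads enter these r was not tested. The lowest were Eif1a at -0.39 and Eif1ax at 0.41. In the 20 other neighbouring genes at this level the median was 0.32, the range -0.78 to 0.77, and 0 reached 0.9. The 49 genes of the 2-cell list that are not copies had a median of 0.77.

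**Figure D4:**
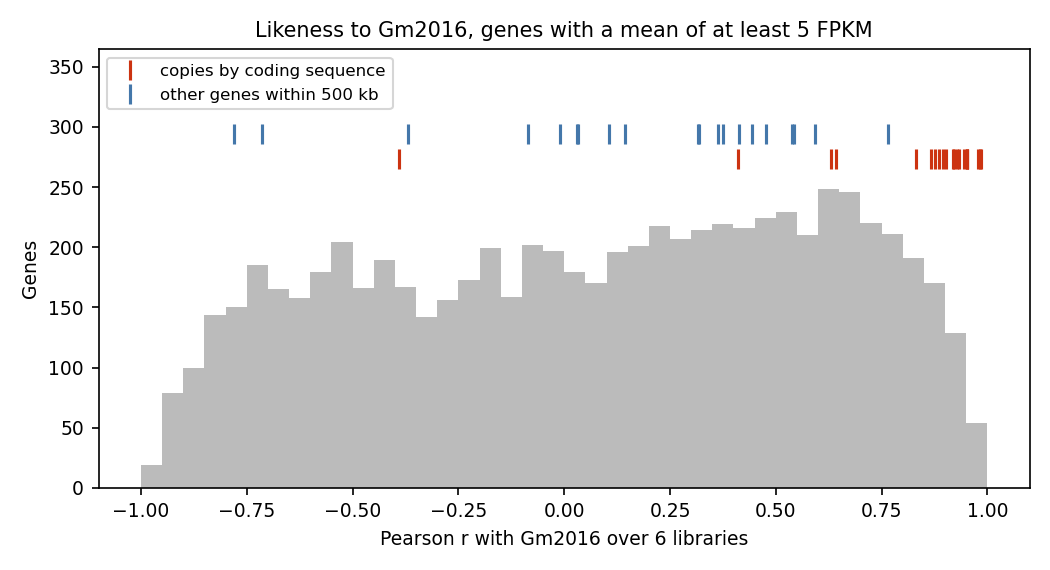
The grey histogram counts the 7085 genes by their r with Gm2016 over 6 libraries. Red ticks mark the 21 relatives by coding sequence and blue ticks the 20 other genes within 500 kb. Most red ticks lie above 0.8, while blue ticks run from -0.78 to 0.77. The chromosome 12 copies among the red ticks share sequence windows with Gm2016.

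Markers of cumulus and granulosa cells, blood and sperm had few reads. The blood reads were lowest in A2 and C2, as Gm2016 was, though A1 had more of them than B2. The 14 cumulus and granulosa genes had 3.17 and 1 reads in the A libraries, 11 and 9 reads in the B libraries and 8.5 and 3.5 reads in the C libraries, and 7 of them, among them Foxl2 and Fshr, were at 0 in all libraries. Of 5 blood genes, Hbb-bs and Hbb-bt were at 0 throughout, and the 5 together had 62 and 12 reads in A, 72 and 37 reads in B, and 35 and 6.5 reads in C. Hba-a1 and Hba-a2 measured 4.75 to 42.3 and 4.13 to 38.5 FPKM, and Alas2 at most 0.83 FPKM. The 8 sperm genes, with Prm1, Tnp2, Odf1 and Smcp at 0, had 46 to 93 reads per library. Of these genes Ldhc measured 28.6 to 46.0 FPKM, and none of the others exceeded 1.81 FPKM. The 8 oocyte genes, all detected, took 0.145% and 0.0708% of reads in the A libraries, 0.150% and 0.126% in the B libraries and 0.130% and 0.0706% in the C libraries. Their sum was lowest in A2 and C2, as Gm2016 was, while Zp3 was highest in A2. Of the 8 oocyte genes, 5 were lower in both A2 and C2 than in the other 4 libraries, against 15% of all genes tested. So were 2 of the 5 blood genes, 2 of the 14 cumulus and granulosa genes and 0 of the 8 sperm genes. The part of these in the Gm2016 levels was not tested.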

How the data were processed

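RNA of 6 pools of 5 embryos was analysed. Per the labels' protocols, ERCC spike-in RNA was added at 1 to 40000, cDNA was amplified by 13 PCR cycles, and the tagmented libraries were read for 50 and 25 bases. The submitters' processing notes name STAR, featureCounts, Trimmomatic, cutadapt and Trim Galore with no version, and mm10; how strand and multiple matches were handled is not stated there. The authors deposited FPKM values per gene with gene lengths, and the table has 0 spike-in rows.

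FPKM times length gave reads up to 1 factor per library, taken from the most frequent value. All values were multiples of 0.01 read (tolerance 0.0002) and 55.6% to 57.9% were whole (tolerance 0.001), so reads were counted as fractions. Intervals (Wilson, 95%, on rounded reads) reflect counting error alone, because without molecular identifiers PCR copies remain. GENCODE M21 holds 99.8% of the identifiers.

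Genes averaging 1 FPKM or more were fitted as log2(FPKM + 1) in limma 3.58.1 (R 4.3.3), with 1 mean per pair, a variance trend and Benjamini-Hochberg adjustment at 0.05. Fold changes on this scale understate those of low genes. The method was tested on simulated data with the same dispersion for all genes and no library-wide deviation such as that of A2 and C2. That test therefore does not show how the method behaves at the spread of these libraries. Sequences were compared with BLAST+ 2.17.0, and 50-base windows were searched on both strands of the GENCODE M21 transcripts, which leave out unannotated copies. Protein sequences were not used here, so relatives came from a list of names and, added after seeing the data, from coding sequence. The p-values measure the spread between pools.

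The gene, the lists and the tests were chosen with earlier results of these data known. Named were Gm2016, its relatives, the 10 most and 5 least like genes, neighbours, abundant 2-cell genes, set initiation factors and the genes next in order, and after the values were seen relatives, neighbours and 2-cell genes were narrowed to those given. Alternatives were another pseudocount, other filters and scalings, no trend, a replicate block, limma-voom, leaving out each library and, added later, leaving out A2 and C2 and summing Gm2016 with Gm5662.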

Additional observations from a re-analysis of the deposited data

How the results depend on the processing

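The difference of B from the mean of A and C in Gm2016 ran from 0.78 without A2 and C2 to 1.64 without C1 over the 16 alternatives. The gene was chosen for this difference. Both B libraries lay above all others, so leaving out libraries could not change its sign. The filters, the variance trend and the replicate block could not change this coefficient at all. Leaving out single libraries gave 0.96 to 1.64. C against A kept no direction, at -0.37 to 0.99 when single libraries were left out, with an adjusted p of 0.989 to 1 over all alternatives (limma). Where a library is left out, the lone library of its pair is assumed to vary like the others. The medians of the Eif1a-like list, the 2-cell list and the neighbours stayed above 0 in every alternative, the first between 0.44 without A2 and C2 and 1.32 without C1. The neighbours here include the chromosome 12 copies, and the 2-cell list holds some of them, so these medians are not separate. Apart from the copies, the neighbours had a median of 0.23 in the main fit and 0.16 without A2 and C2. The number of genes called in B against the mean of A and C was 3 with no variance trend and 0 in every other fit. Of the 10 genes most like Gm2016, 4 stayed among the top 10 by Spearman's rho, 5 after quantile normalization, 1 to 5 without single libraries and 0 without A2 and C2, so that list rests on these 6 libraries. The replicate number as a block cannot move the coefficients of 1.30 and 0.31 in this balanced design, and the count of calls was 0. Differences between replicates 1 and 2 correlated across genes at 0.10 for A and B, 0.20 for A and C and 0.005 for B and C. The labels give no shared day, so the numbers were not taken to pair the libraries in the main fit. A pairing was not excluded. The alternative at a protein identity of 80% was not run. With 2 libraries per pair and 907210 to 1555431 reads, the spread between libraries exceeds counting error and limits the comparisons of pairs in Gm2016.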
